A study of Mus musculus with 23 samples.

Results

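The marrow stromal niche genes examined here were Kitl, Angpt1, Il7, Lepr, Pdgfra, Pdgfrb, Foxc1, Ebf3, and Prrx1. They were chosen by symbol in the deposited TPM table and matched to the deposited count table by gene ID. All 9 of 9 were found among 17644 genes with TPM values, and all 9 passed the filter on low counts, with 14364 genes tested of 67228 entries. RNA came from the femur and tibia of 1 hind limb, from which the marrow had been spun out, in 23 female C57BL6/N mice at 11 weeks of age, with 1 library per mouse. WT Control (n = 5) and KO Control (n = 6) mice had received saline, and WT T1D (n = 6) and KO T1D (n = 6) mice had received streptozotocin at 100 mg/kg, a toxin of pancreatic beta cells, and had type 1 diabetes (T1D) for 3 weeks. KO mice carried a global knockout of Sarm1, an NAD-degrading enzyme of axons. WT mice carried no Sarm1 knockout, and no other allele was given for any group. Because whole pieces of bone were measured, fewer cells of a type and less RNA per cell cannot be told apart.

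Stromal cells around marrow vessels support blood stem cells and early lymphocytes by secreting growth factors. In adult long bones many of these cells carry the leptin receptor, are rich in Cxcl12, and are kept in their state by transcription factors such as Foxc1 and Ebf3. The same lineage also holds progenitors of osteoblasts and fat cells, and Pdgfra, Pdgfrb, and Prrx1 mark it together with other connective tissue cells of the limb.

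Total counts were 16938101 to 20135592 per mouse. Markers of osteoblasts and osteocytes were abundant, but hemoglobin genes still took 8.01% to 21.4% of the counts of a mouse, so blood and marrow RNA remained. The knockout label could not be checked with Sarm1 itself, because its levels did not follow that label. Its mean was lower in KO Control than in WT Control but higher in KO T1D than in WT T1D. Mean Sarm1 levels were 1.17 ± 0.403 CPM (SD, 5 WT Control mice), 0.687 ± 0.293 CPM (6 WT T1D mice), 0.799 ± 0.503 CPM (6 KO Control mice), and 1.19 ± 0.259 CPM (6 KO T1D mice). These values rest on 5 to 32 counts per mouse, and gene-level counts do not show which exons were read. The libraries are therefore named by their labels throughout. CPM values are library-scaled counts after TMM scaling, which corrects library sizes for a few very abundant genes.

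A pair of WT T1D mice, A3905 and A3906, stood apart from the rest before any niche gene was considered. Their summed osteoblast and osteocyte markers were 4463 and 3558 CPM, against 35998 to 78428 CPM in the other 21 mice. Their B-cell markers were also the lowest of all mice, at 163 and 199 CPM against 379 to 1024, and their erythroid markers were the highest, at 238738 and 233711 CPM against 81378 to 179989. Mouse IDs fell into an A17 series, with 1 WT Control and 3 WT T1D mice but no KO mouse, and a series from A36 to A39. In the second series, A3905 and A3906 were 2 of only 3 WT T1D mice. Values without both mice are given beside the results on which they bear.

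The promoters of the niche genes are shown for those on which the later results turn. Pdgfra and Prrx1 were the members that varied most alike over all mice, Kitl was high in the mice where Pdgfra was lowest, and Ebf3 had the lowest p value with T1D. Each sequence runs from 250 bases before to 50 bases after a transcript start in RefSeq on the gene's own strand, 5′ to 3′, in GRCm38.p6. They lie at chr5:75152001-75152300 on the plus strand, chr1:163313601-163313900 on the minus strand, chr10:100015571-100015870 on the plus strand, and chr7:137314396-137314695 on the minus strand, in the order printed. In each of the 4 this start lay inside the annotated gene span, and the windows of Pdgfra, Prrx1, and Ebf3 lay wholly inside it, so none of them is the most upstream start of its gene. Capitals mark a TATA box (TATAAA), a GC box (GGGCGG), or an EBF core (CCCNNGGG), each read on both strands.
Pdgfra promoter: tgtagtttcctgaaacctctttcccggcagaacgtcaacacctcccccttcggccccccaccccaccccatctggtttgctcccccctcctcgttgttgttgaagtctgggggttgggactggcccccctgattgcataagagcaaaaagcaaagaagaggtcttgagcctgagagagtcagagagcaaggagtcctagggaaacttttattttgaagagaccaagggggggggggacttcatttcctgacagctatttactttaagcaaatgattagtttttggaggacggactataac
Prrx1 promoter: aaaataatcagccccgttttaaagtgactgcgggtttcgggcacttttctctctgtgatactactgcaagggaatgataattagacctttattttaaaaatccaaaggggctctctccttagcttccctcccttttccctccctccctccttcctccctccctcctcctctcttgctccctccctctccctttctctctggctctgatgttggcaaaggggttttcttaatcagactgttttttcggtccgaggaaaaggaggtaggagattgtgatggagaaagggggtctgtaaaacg
Kitl promoter: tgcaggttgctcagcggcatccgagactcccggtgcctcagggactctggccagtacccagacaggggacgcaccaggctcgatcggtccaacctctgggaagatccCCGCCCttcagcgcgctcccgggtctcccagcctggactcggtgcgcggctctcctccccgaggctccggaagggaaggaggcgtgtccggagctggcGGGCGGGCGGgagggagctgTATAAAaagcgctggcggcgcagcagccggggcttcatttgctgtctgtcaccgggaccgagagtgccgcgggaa
Ebf3 promoter: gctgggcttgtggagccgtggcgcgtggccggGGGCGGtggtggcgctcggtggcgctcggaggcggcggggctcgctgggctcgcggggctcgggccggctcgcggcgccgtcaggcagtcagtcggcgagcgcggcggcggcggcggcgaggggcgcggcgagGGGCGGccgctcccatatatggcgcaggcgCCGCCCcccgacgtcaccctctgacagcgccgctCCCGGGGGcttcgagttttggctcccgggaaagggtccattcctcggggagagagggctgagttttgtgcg

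Of the members, 6 had a promoter entry that was read, with 7 starts in all because Lepr had a pair of them. Among all 32851 promoters of the same 300 bases, 13.6% held TATAAA, 35.7% held GGGCGG, and 13.7% held CCCNNGGG. The Kitl promoter had 1 TATA box and 3 GC boxes, 2 of which overlapped, and the Ebf3 promoter had 1 EBF core and 3 GC boxes. None of the 3 motifs was in the printed window of Pdgfra or Prrx1, which were 51% and 47.7% G and C, against 68.7% for Kitl and 77% for Ebf3. Of the 7 starts, 1 held the EBF core, 1 the TATA box, 4 the GC box, 1 the RUNX core TGTGGT (16.8% of all promoters), which was that of Foxc1, and 0 the forkhead core TAAACA (13.4%). These matches are a description of the letters only.

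Levels could be compared between genes as TPM, which divides by transcript length. In WT Control, Pdgfrb was the most abundant of the 9 genes, at 22.5 ± 4.99 TPM (SD, n = 5), followed by Pdgfra at 16.3 ± 3.99, Prrx1 at 14.8 ± 3.68, and Lepr at 14.4 ± 2.16. Ebf3 at 9.99 ± 1.39, Foxc1 at 9.79 ± 2.58, and Kitl at 9.60 ± 1.17 TPM came next. Angpt1 at 6.91 ± 0.820 and Il7 at 2.17 ± 0.524 TPM were the lowest. In this order each gene overlapped the next in its range over mice down to Kitl, whereas Kitl and Angpt1, and Angpt1 and Il7, did not overlap. Pdgfrb had the highest and Il7 the lowest mean TPM in all 4 groups. In WT T1D, Lepr at 13.1 ± 1.74 TPM (n = 6) came second, above Prrx1 at 10.3 ± 5.95 and Pdgfra at 9.26 ± 4.47, with ranges that overlapped.

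With T1D in WT mice, 0 of the 9 niche genes passed an edgeR adjusted p of 0.05, in a comparison where 2.33% of all genes tested did (334 genes). In 6 of the 9 the mean moved down in WT T1D and in 3 it moved up, and their median log2 fold change was -0.23, against -0.011 over all genes tested. Unadjusted p was under 0.05 for 2 of the 9, Ebf3 and Pdgfra, both by edgeR and by DESeq2, as it was for 22.2% of all genes tested by edgeR (3195 genes). When A3905 and A3906 were left out, 5 of the 9 were higher and 4 lower at a median of 0.0091. In that fit 0 of the 9 were called, as were 0% of all genes. Unadjusted p was then under 0.05 for Angpt1 and Ebf3, against 11% of all genes (edgeR). DESeq2 also called 0 of the 9 while calling 6.98% of all genes. The largest differences from WT Control were those of Pdgfra, Ebf3, and Prrx1, and they are described below by the role of each gene.

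**Figure D1:**
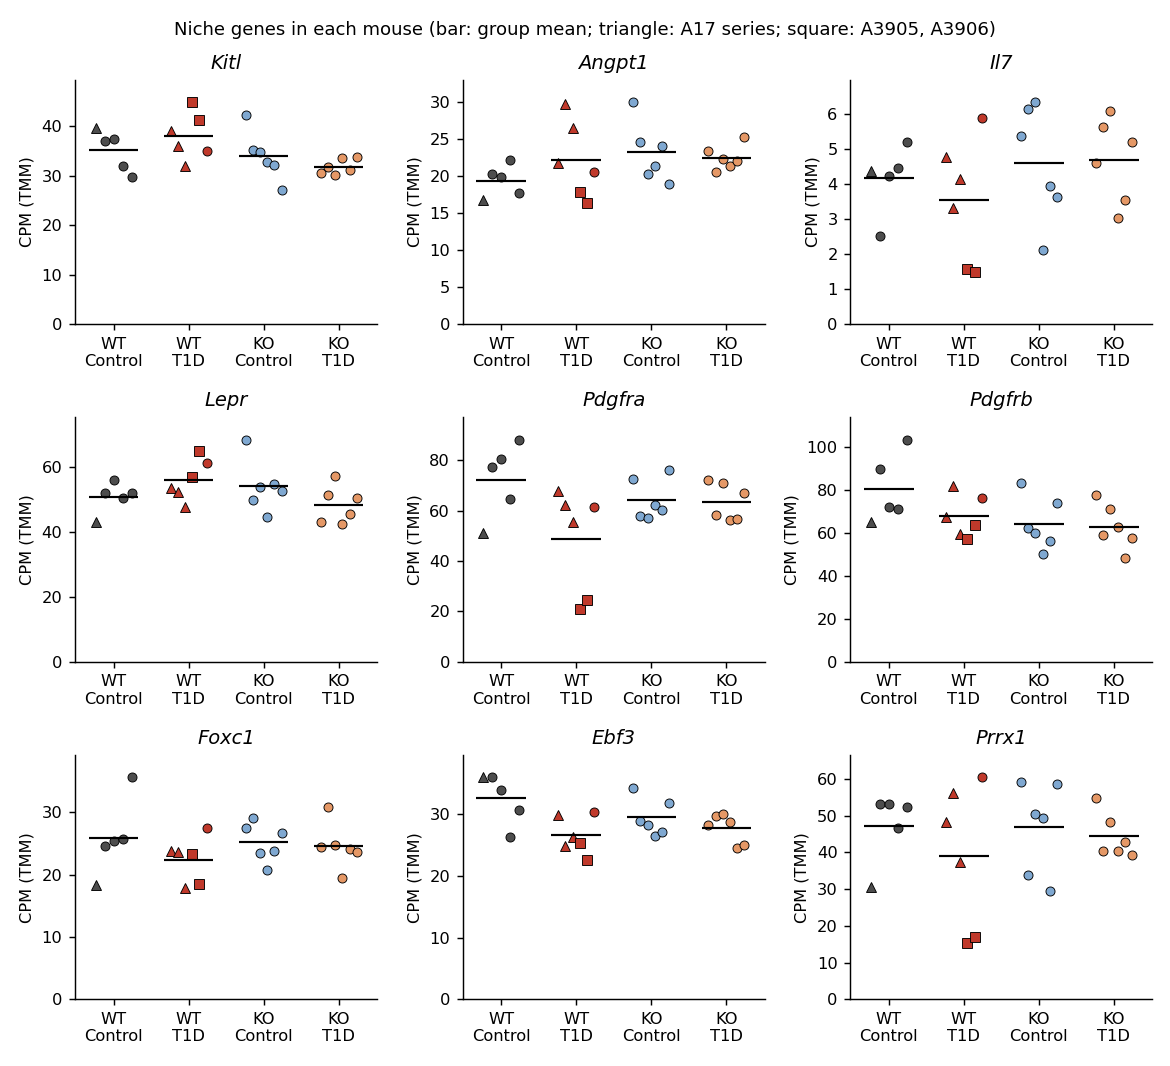
Library-scaled counts (CPM, TMM scaled, linear axes from 0) of the 9 niche genes in each of 23 mice, by group. Bars are group means, triangles are mice of the A17 series, and squares are A3905 and A3906, which were the lowest WT T1D mice for Pdgfra, Prrx1, and Il7 and the highest for Kitl.

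Kitl (gene ID 17311, chr10:100015615-100100416 in GRCm38.p6) encodes stem cell factor, the ligand of the Kit receptor on blood stem cells and mast cells. In WT Control, it was at 39.7, 37.1, 37.5, 32.0, and 29.8 CPM. In WT T1D it ranged from 31.9 to 44.9 CPM with a median of 37.5, in KO Control from 27.1 to 42.2 with a median of 33.8, and in KO T1D from 30.2 to 33.7 with a median of 31.5. The groups overlapped, but 4 of 6 KO T1D mice were below every WT T1D mouse. T1D went with a log2 fold change of 0.11 ± 0.10 in WT (SE, edgeR adjusted p = 0.536), 4 of 6 mice being above the mean of WT Control, but it was -0.16 in TPM. In KO it was -0.098 ± 0.094 (adjusted p = 1.00, edgeR). A3905 (44.9 CPM) and A3906 (41.2 CPM) had the most Kitl of the WT T1D mice, and the fold change in WT was 0.0091 on the log2 scale once both were left out.

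Angpt1 (gene ID 11600, chr15:42424667-42676977) encodes angiopoietin 1, which activates the Tie2 receptor on endothelial cells and blood stem cells. WT Control mice had 16.7, 20.3, 19.9, 22.2, and 17.7 CPM. The range was 16.3 to 29.8 CPM in WT T1D (median 21.2), 19.0 to 30.0 in KO Control (median 22.7), and 20.6 to 25.2 in KO T1D (median 22.2). The ranges overlapped in every pair of groups. Between WT groups the log2 fold change was 0.19 ± 0.13 (edgeR adjusted p = 0.410), with 4 of 6 mice above the mean of WT Control, but it was -0.096 in TPM and -0.12 in the A36 to A39 series alone. Both mice of highest Angpt1 in WT T1D were of the A17 series, and without A3905 and A3906 the value was 0.35 (adjusted p = 0.34, edgeR). In KO it was -0.046 ± 0.13 (adjusted p = 1.00, edgeR).

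Il7 (gene ID 16196, chr3:7572028-7613760) encodes interleukin 7, which early B and T cells need to survive and divide. It was the least abundant niche gene, with 26 to 124 counts per mouse. WT Control mice had 4.38, 2.52, 4.24, 4.45, and 5.18 CPM. WT T1D ranged from 1.50 to 5.89 CPM (median 3.73), KO Control from 2.12 to 6.33 (median 4.66), and KO T1D from 3.02 to 6.09 (median 4.90). The lowest of all 23 mice were A3906 at 1.50 and A3905 at 1.59 CPM, which also had the lowest B-cell markers. Its log2 fold change was -0.23 ± 0.32 in WT (edgeR adjusted p = 0.712) and 0.028 ± 0.30 in KO (adjusted p = 1.00, edgeR), and that in WT was 0.12 without A3905 and A3906. Its 95% interval in WT, from -0.89 to 0.43, was the widest of the 9 genes.

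Lepr (gene ID 16847, chr4:101717137-101815352) encodes the leptin receptor and marks the perivascular reticular cells of adult marrow. It was at 43.0, 52.0, 56.1, 50.4, and 52.0 CPM in WT Control. It ranged from 47.6 to 65.0 CPM in WT T1D (median 55.3), from 44.6 to 68.6 in KO Control (median 53.4), and from 42.6 to 57.5 in KO T1D (median 48.1). Of the WT T1D mice, 5 of 6 were above the mean of their controls, and of the KO T1D mice, 5 of 6 were below that of theirs, with overlapping ranges in both cases. Lepr had a log2 fold change of 0.15 ± 0.10 in WT (edgeR adjusted p = 0.408), though -0.12 in TPM and 0.080 without A3905 and A3906, and -0.16 ± 0.10 in KO (adjusted p = 1.00, edgeR). The difference between these effects was -0.31 ± 0.14, the lowest interaction p of the 9 genes (unadjusted p = 0.0408, adjusted p = 0.480, edgeR). That difference was -0.24 without A3905 and A3906 (unadjusted p = 0.107, edgeR).

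Pdgfra (gene ID 18595, chr5:75151322-75198206) encodes a receptor for platelet-derived growth factors that marks mesenchymal progenitors. WT Control mice had 51.0, 77.1, 80.4, 64.5, and 88.2 CPM. WT T1D ranged from 20.8 to 67.6 CPM (median 58.4), KO Control from 57.2 to 76.2 (median 61.2), and KO T1D from 56.3 to 72.1 (median 62.6). A3905 at 20.8 and A3906 at 24.3 CPM were below all other mice, whereas the other 4 WT T1D mice, at 55.3 to 67.6 CPM, lay within the WT Control range. Pdgfra had the largest difference of the 9 genes in WT, with a log2 fold change of -0.57 ± 0.22 (unadjusted p = 0.0183, adjusted p = 0.138, edgeR), with 6 of 6 mice under the mean of WT Control. It was -0.23 without A3905 and A3906, -1.11 in the A36 to A39 series alone (adjusted p = 0.0128, edgeR), and 0.048 with the erythroid score as a covariate. That score is the mean log2 CPM of 11 erythroid markers, all 11 of which were themselves higher in WT T1D. With the score in the fit, 0 of 14364 genes were called with T1D in WT, against 334 without it. In KO, with no covariate, the log2 fold change of Pdgfra was -0.020 ± 0.21 (95% interval -0.46 to 0.42). The interaction was 0.55 ± 0.31 (unadjusted p = 0.0896, adjusted p = 0.534, edgeR).

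Pdgfrb (gene ID 18596) encodes the related receptor through which pericytes are recruited to vessels. Its WT Control values were 65.2, 89.8, 72.0, 71.2, and 103 CPM. It ranged from 57.1 to 82.0 CPM in WT T1D (median 65.6), from 50.2 to 83.2 in KO Control (median 61.1), and from 48.2 to 77.8 in KO T1D (median 60.8). Of the 6 KO Control mice, 4 were below every WT Control mouse, and 3 of 6 WT T1D mice were as well. Between diabetic and control mice it differed by a log2 fold change of -0.25 ± 0.14 in WT (edgeR adjusted p = 0.305) and -0.036 ± 0.13 in KO (adjusted p = 1.00, edgeR). Leaving out WT Control mouse A3907, the highest at 103 CPM, gave -0.14 in WT, and leaving out A3905 and A3906 gave -0.18.

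Foxc1 (gene ID 17300, chr13:31806646-31810635) encodes a forkhead factor required for reticular cells to form. WT Control mice were at 18.3, 24.7, 25.4, 25.6, and 35.7 CPM. WT T1D ranged from 17.9 to 27.5 CPM (median 23.5), KO Control from 20.8 to 29.0 (median 25.2), and KO T1D from 19.4 to 30.8 (median 24.3). These ranges lay almost wholly within that of WT Control. Foxc1 had a log2 fold change of -0.21 ± 0.14 in WT (edgeR adjusted p = 0.388) and -0.038 ± 0.13 in KO (adjusted p = 1.00, edgeR). Without WT Control mouse A3907, the highest of all 23, the value in WT was -0.065.

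Ebf3 (gene ID 13593, chr7:137193671-137322805) encodes an early B-cell factor family protein that keeps reticular cells from turning to bone. It was at 36.04, 35.98, 34.0, 26.4, and 30.6 CPM in WT Control. WT T1D ranged from 22.6 to 30.5 CPM (median 25.8), KO Control from 26.4 to 34.3 (median 28.7), and KO T1D from 24.6 to 30.1 (median 28.6). The mean of WT Control was above all 6 WT T1D mice, and 4 of them were below every WT Control mouse. The log2 fold change in WT was -0.29 ± 0.095 (unadjusted p = 0.00491, adjusted p = 0.0785, edgeR), which missed the threshold. Leaving out WT T1D mouse A3909 gave -0.34 (adjusted p = 0.0349, edgeR), in a fit that called 8.8% of all genes, and leaving out any other mouse called no niche gene. Without A3905 and A3906 it was -0.23. In KO it was -0.088 ± 0.090 (adjusted p = 1.00, edgeR).

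Prrx1 (gene ID 18933, chr1:163245119-163315145) encodes a homeobox factor of limb mesenchyme. WT Control mice had 30.7, 53.3, 53.2, 46.7, and 52.5 CPM. The range was 15.5 to 60.5 CPM in WT T1D (median 42.8), 29.6 to 59.1 in KO Control (median 49.9), and 39.4 to 54.9 in KO T1D (median 41.7). A3905 at 15.5 and A3906 at 17.002 CPM were again the lowest of all mice, but A3909 and A1764, also WT T1D, were above every WT Control mouse. Prrx1 had a log2 fold change of -0.27 ± 0.28 in WT (edgeR adjusted p = 0.592), which turned to 0.094 without A3905 and A3906 and to 0.44 with the erythroid score as a covariate. In KO it was -0.076 ± 0.26 (adjusted p = 1.00, edgeR).

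The choice of scale moved the WT comparison as a whole. In TPM, the median log2 fold change over all genes was -0.24, and limma on log2(TPM + 1) called 35.9% of all genes. It also called 4 of the 9 niche genes lower, namely Pdgfra at -0.87, Ebf3 at -0.52, Pdgfrb at -0.51, and Foxc1 at -0.43. With 0.1 in place of 1, the same count of 4 was called among 36% of all genes. Relative to the median gene, the TPM values were -0.63 for Pdgfra, -0.28 for Ebf3, -0.27 for Pdgfrb, and -0.19 for Foxc1. On that relative scale Kitl at 0.076, Angpt1 at 0.14, and Lepr at 0.12 were again higher in WT T1D.

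**Figure D2:**
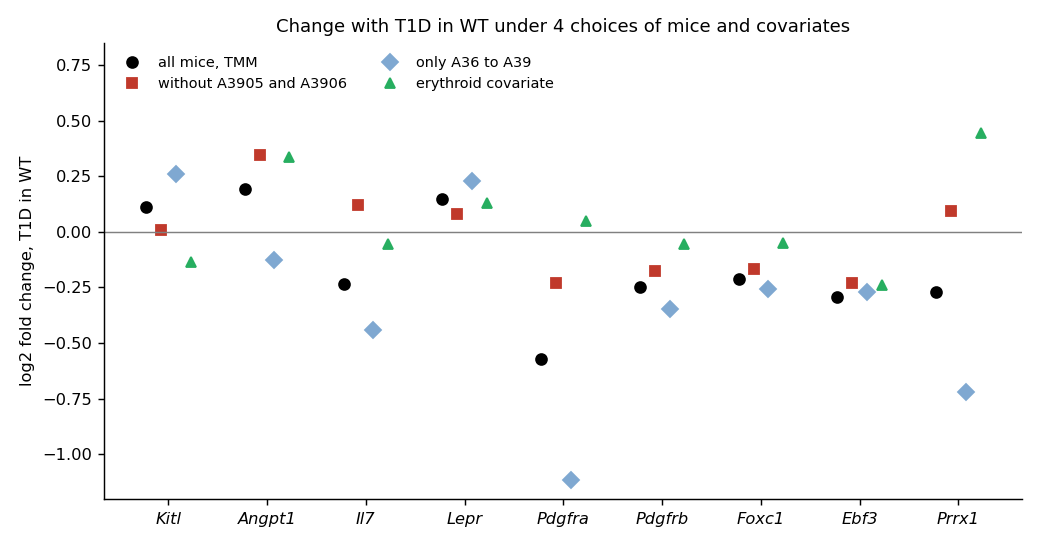
log2 fold change of each niche gene, WT T1D against WT Control (edgeR, y axis), with all 23 mice, without A3905 and A3906, within the A36 to A39 series, and with the erythroid score as a covariate. Pdgfra moved from -1.11 to 0.048 and Prrx1 crossed 0, while Ebf3, Pdgfrb, and Foxc1 stayed below 0 in all 4.

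Within the A36 to A39 series, 1 of the 9 niche genes, Pdgfra, was called lower with T1D in WT, where 15.5% of all genes were called. That series compares 4 WT Control mice with A3905, A3906, and A3909. Its other log2 fold changes included -0.72 for Prrx1, -0.44 for Il7, -0.35 for Pdgfrb, -0.27 for Ebf3, -0.12 for Angpt1, and 0.26 for Kitl. None of these passed the threshold. A3909 did not share the low values, with 61.5 CPM of Pdgfra and 60.5 CPM of Prrx1.

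In mice labelled KO, 0 of the 9 niche genes differed with T1D, where 0% of all genes tested passed (edgeR, lowest adjusted p of any gene 0.797, 452 genes with unadjusted p under 0.05). DESeq2 called 0 of the 9 as well, and 0 had an unadjusted p under 0.05 by either tool. The 9 log2 fold changes ran from -0.16 for Lepr to 0.028 for Il7, with a median of -0.046. The 95% interval reached beyond 0.5 in size for Il7 and Prrx1 only. For Kitl it was -0.29 to 0.098 and for Ebf3 -0.28 to 0.099.

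**Figure D3:**
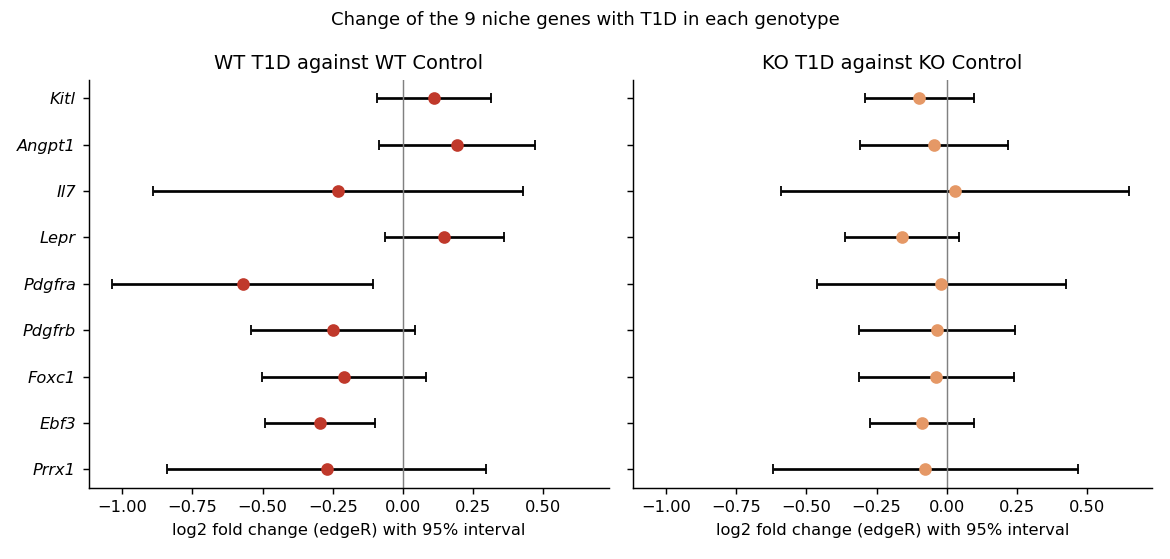
log2 fold change with T1D (x axis, edgeR, 95% interval) of each niche gene in WT mice (left, 5 against 6) and in KO mice (right, 6 against 6). Only Pdgfra and Ebf3 in WT have an interval that leaves out 0, and neither passes the adjusted threshold.

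The effect of T1D was not shown to differ between genotypes for any niche gene. The interaction passed for 0 of the 9, as for 0% of all genes tested (edgeR, lowest adjusted p 0.479, 1467 genes with unadjusted p under 0.05), and DESeq2 also called 0 of the 9. Unadjusted p was under 0.05 for 1 of the 9, Lepr, by either tool, and for 10.2% of all genes by edgeR. With both of A3905 and A3906 left out it was under 0.05 for 1 of the 9, Angpt1 at -0.40 (adjusted p = 0.927, edgeR), and for 4.66% of all genes.

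Without diabetes, KO and WT mice differed in 0 of the 9 niche genes, where 0.0278% of all genes were called by edgeR (4 genes). Only Pdgfrb had an unadjusted p under 0.05, as 4.80% of all genes did, with a log2 fold change of -0.32 ± 0.14 in KO Control (unadjusted p = 0.0320, adjusted p = 0.999), with 5 of 6 mice under the mean of WT Control. Angpt1 was at 0.26 ± 0.13 (unadjusted p = 0.0634, edgeR), with 3 of 6 KO Control mice above every WT Control mouse.

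Among diabetic mice, KO T1D differed from WT T1D in 0 of the 9 niche genes, where 0.0905% of all genes were called by edgeR (13 genes). Unadjusted p was under 0.05 for 2 of the 9 by edgeR and by DESeq2, and for 17.1% of all genes by edgeR (2454 genes). These were Kitl at -0.26 ± 0.094 (unadjusted p = 0.0124, adjusted p = 0.202, edgeR), below the WT T1D mean in 6 of 6 mice, and Lepr at -0.21 ± 0.098 (unadjusted p = 0.0396, adjusted p = 0.271, edgeR), below it in 5 of 6. Without A3905 and A3906, 0 of the 9 were called, where 0.0279% of all genes were. Unadjusted p was then under 0.05 for 0 of the 9 and for 6.46% of all genes (edgeR). Kitl was then at -0.16 (unadjusted p = 0.119), Lepr at -0.15 (unadjusted p = 0.173, edgeR), and Pdgfra, which was at 0.38 with all mice, at 0.042. In the A36 to A39 series alone, 2 were called among 10.8% of all genes, Kitl at -0.36 (adjusted p = 0.0471) and Pdgfra at 0.83 (adjusted p = 0.0321, edgeR). The WT T1D mice of that series were A3905, A3906, and A3909, and every KO T1D mouse had an A36 ID. With the A17 series as a term in the edgeR fit, 1 was called among 4.62% of all genes, Lepr at -0.34 (adjusted p = 0.0491).

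Other genes of Lepr-positive reticular cells were in part higher in WT T1D, and 0 of 16 passed the threshold. By direction 10 were higher and 6 lower, and the median log2 fold change was 0.20 (edgeR). Unadjusted p was under 0.05 for 4 of the 16, against 22.2% of all genes, and 2.33% of all genes passed the threshold. The 4 genes given next were chosen by size of fold change, and Grem1 among them had an unadjusted p above 0.05 (edgeR). Haptoglobin (Hp) was at 0.54 ± 0.20 (adjusted p = 0.108), Cyp1b1 at 0.45 ± 0.15 (adjusted p = 0.0872), the BMP antagonist Grem1 at 0.41 ± 0.26 (adjusted p = 0.358), and the dipeptidase Dpep1 at 0.37 ± 0.16 (adjusted p = 0.181, edgeR). Without A3905 and A3906, 14 were higher and 2 lower, with a median of 0.11, and Hp was at 0.092, Cyp1b1 at 0.15, Grem1 at 0.35, and Dpep1 at 0.021. A3905 and A3906 had the highest summed level of the list of all mice, 4207 and 4120 CPM, a sum in which Cxcl12 weighs most. By mean log2 CPM of the list, which weighs each gene alike, they were not the highest. They were at 6.28 and 6.24, below A3670 at 6.42, A1758 at 6.38, and A3909 at 6.30. In KO T1D against WT T1D, 13 of the 16 were lower, at a median of -0.26. Unadjusted p was under 0.05 for 9 of the 16, against 17.1% of all genes (edgeR). The threshold was passed by 0 of the 16 and by 0.0905% of all genes. Without both mice 13 were again lower, at a median of -0.16. Unadjusted p was then under 0.05 for 2 of the 16, against 6.46% of all genes (edgeR).

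The partners of the niche genes, the receptors of the ligands and the ligands of the receptors, numbered 11, and 10 were tested because leptin (Lep) was too low. In WT T1D 7 were lower and 3 higher, 0 passed, and the median was -0.20 (edgeR). Tek, the Tie2 receptor of Angpt1, was at -0.44 ± 0.12 (adjusted p = 0.0524), its relative Tie1 at -0.37 ± 0.12 (adjusted p = 0.0781), the Pdgfrb ligand Pdgfd at -0.50 ± 0.28 (adjusted p = 0.292), and the Tie2 ligand Angpt2 at 0.32 ± 0.16 (adjusted p = 0.231, edgeR). Without A3905 and A3906, 6 were lower and 4 higher at a median of -0.051, with Tek at -0.38, Tie1 at -0.22, Pdgfd at -0.096, and Angpt2 at 0.12.

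Among 8 genes of pericytes and smooth muscle, Cspg4, a proteoglycan of pericytes, fell in WT T1D, with a log2 fold change of -0.88 ± 0.24 (adjusted p = 0.0499, edgeR), and it was the only gene called in the 4 lists of other niche genes. It was at -0.65 without A3905 and A3906 (adjusted p = 0.333, edgeR), in a fit that called 0% of all genes. The pericyte regulator Rgs5 was at -0.45 ± 0.14 (adjusted p = 0.0651). Of 8 fibroblast and periosteal genes 0 passed, with the collagen-binding Lum at -0.82 ± 0.39 (adjusted p = 0.211) and Dpt at 0.76 ± 0.71 (adjusted p = 0.558, edgeR). These were at -0.37 and 1.26 without A3905 and A3906.

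Markers of other cells moved in WT T1D beside the niche genes. Of 12 osteoblast and osteocyte markers, 11 were lower at a median of -0.74, and 2 were called, the matrix protein Ibsp and the osteoblast factor Runx2. The summed level was 3558 to 57225 CPM in WT T1D and 40382 to 78428 in WT Control. Of 11 erythroid markers tested, all 11 were higher at a median of 0.64 and 5 were called, with summed levels of 126963 to 238738 CPM against 98281 to 143927. Without A3905 and A3906, the medians were -0.41 and 0.41 and 0 of either list was called, in a fit that called 0 of all 14317 genes. Medians of the other lists were -1.37 over 6 chondrocyte, 0.19 over 9 neutrophil, -0.023 over 8 B-cell, 0.050 over 6 megakaryocyte, -0.13 over 6 endothelial, and 0.17 over 6 skeletal muscle markers, with 0 called. With both mice left out these were -0.95, -0.027, 0.41, 0.36, -0.079, and 0.21, in the same order, and 7 of 8 B-cell and 6 of 6 megakaryocyte markers were higher. In the other comparisons 0 genes of any of these lists were called. The part of these cells in the values of the niche genes was not tested.

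The niche genes did not vary as 1 block across mice. Over 23 mice, which share the same TMM scaling, Pearson's r of log2 CPM between 36 pairs of members ran from -0.56 for Kitl and Pdgfra to 0.90 for Pdgfra and Prrx1, with a median of 0.30. Without A3905 and A3906, the pair of Kitl and Pdgfra was at -0.14 and that of Pdgfra and Prrx1 at 0.64, and the highest was Pdgfra with Pdgfrb at 0.71. Both extremes of the 23 mice thus leaned on the same pair of libraries. Pdgfra and Prrx1, whose promoters are printed above, were low together in these mice, whereas Kitl was high.

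**Figure D4:**
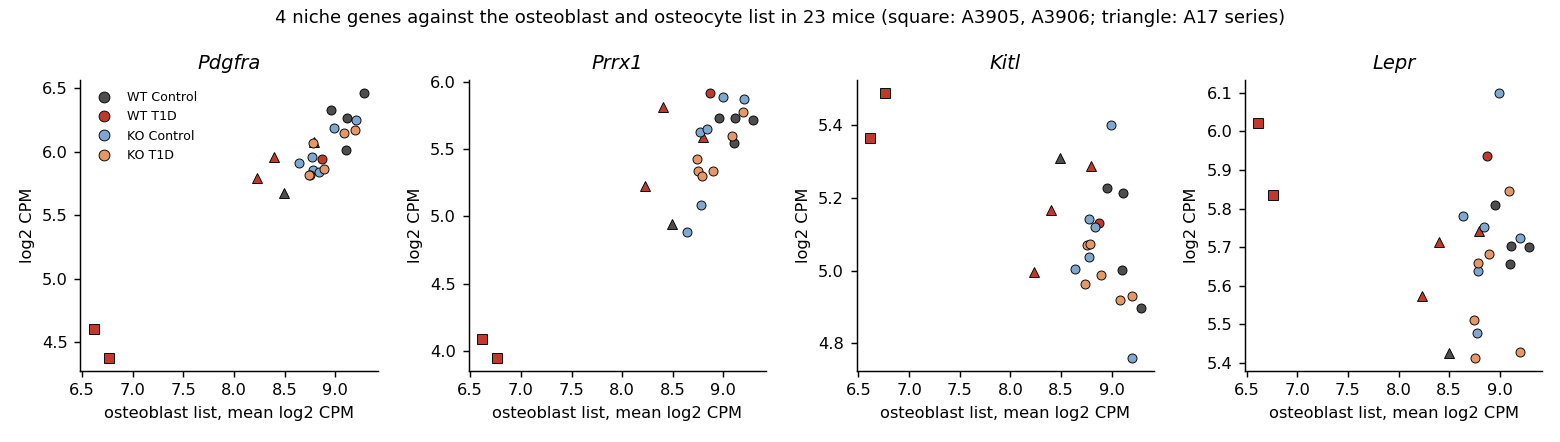
log2 CPM of Pdgfra, Prrx1, Kitl, and Lepr (y axes) against the mean log2 CPM of the osteoblast and osteocyte list (x axes) in 23 mice, with squares for A3905 and A3906 and triangles for the A17 series. The squares sit at the left, lowest of all mice for Pdgfra and Prrx1 and among the highest 3 for Kitl.

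The members also differed in their likeness to the cell markers. With the osteoblast and osteocyte list, r was 0.96 for Pdgfra and 0.88 for Prrx1 over 23 mice, and 0.76 and 0.55 over the 21 without A3905 and A3906. This likeness was not to that list alone. With the pericyte list, r was 0.46 for Pdgfra and 0.51 for Prrx1 over 23 mice, but 0.79 and 0.69 over 21. With the B-cell list it was 0.81 and 0.72 over 23 mice, but -0.55 and -0.46 over 21. With the osteoblast and osteocyte list, Kitl was at -0.61 over 23 mice and -0.31 over 21. Lepr and Kitl went with the reticular list, at 0.66 each over 23 mice and 0.64 and 0.63 over 21. Pdgfrb went with the endothelial list at 0.78 and the pericyte list at 0.78 over 23 mice, Ebf3 with the endothelial list at 0.66, Il7 with the B-cell list at 0.80 (0.52 over 21 mice), and Angpt1 with the megakaryocyte list at 0.69. Foxc1 was at 0.61 with the chondrocyte list and 0.51 with the osteoblast and osteocyte list over 23 mice, and at 0.58 and 0.67 over 21. These are descriptions over mice of 4 groups.

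The gene most like the mean of the 9 niche genes, each as a z score, was Cdh5, the cadherin of endothelial junctions, with r of 0.91 over 23 mice and 0.87 over 21. Rgl1 at 0.87, the potassium channel gene Kcnj10 at 0.86, the ubiquitin ligase gene Nedd4 at 0.86, and Fstl1 at 0.86 followed. By member, Pdgfra was most like Dock1, a regulator of Rac, at 0.98, and Prrx1 most like the microtubule-associated Map1a at 0.96, and these held at 0.90 each over 21 mice. Il7 was most like Vpreb2, part of the surrogate light chain of early B cells, at 0.84 over 23 mice but 0.65 over 21. Ebf3 was most like Stab1, a scavenger receptor of sinusoidal endothelium, at 0.80, Pdgfrb like the basement membrane peroxidase gene Pxdn at 0.86, and Lepr like the coagulation inhibitor gene Tfpi at 0.78. Kitl was most like Mier1 at 0.83, Angpt1 like Plek, a protein of platelets and leukocytes, at 0.81, and Foxc1 like Afap1l2 at 0.81.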

How the data were processed

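Libraries of poly(A) RNA, selected with oligo dT, had been sequenced on the DNBSEQ platform, and SOAPnuke had filtered the reads before HISAT and Bowtie2 placed them on GRCm38.p6. The authors deposited rounded RSEM expected counts per gene, without normalization. They also deposited TPM values from the sequencing provider. Neither the reads nor their alignment were reprocessed.

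Genes that reached 10 counts in 5 or more mice were fitted with edgeR 4.0.16 in R 4.3.3, using TMM, a mean for each of 4 groups, and quasi-likelihood tests, with Benjamini-Hochberg adjustment over all genes tested. DESeq2 1.42.0 and limma 3.58.1 (log2 TPM with 1 or 0.1 added) served as alternatives. Other alternatives were relative log expression factors, no hemoglobin genes, no filter, the mouse ID series, an erythroid covariate, and fewer mice. Counts without A3905 and A3906 over lists, and such correlations, were chosen after seeing the data. The fitting scripts were tested on simulated data. Log2 CPM used a prior count of 0.5. Figures were drawn with matplotlib 3.10.9.

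The members and lists were chosen with earlier results of these data known. From each list of other niche genes, the 2 genes with the largest log2 fold change in WT at a mean of at least 1 CPM are named (4 for reticular genes and for partners), from each marker list 2, and any other niche gene past the threshold. Promoter sequences are from RefSeq (GRCm38.p6). Gene positions are from the annotation of the same build. Total counts limit precision most for Il7 and Sarm1.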

Additional observations from a re-analysis of the deposited data

How the results depend on the processing

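In each of 33 alternatives, 0 of the 9 niche genes were called with T1D in KO, for the interaction, and for KO against WT Control. With T1D in WT the count was 4 with either TPM pseudocount, 1 in the A36 to A39 series, and 0 to 1 when 1 mouse was left out. For KO T1D against WT T1D it was 2 in that series and 1 with the A17 term. Of 45 log2 fold changes, 21 kept their direction in every alternative. No paired analysis was possible because no mouse ID is shared between groups. The cause of the changes below was not tested.

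With T1D in WT, direction turned with TPM (pseudocounts of 1 and 0.1) for Kitl (-0.16, -0.18), Angpt1 (-0.096, -0.12), and Lepr (-0.12, -0.13). The A36 to A39 series turned Angpt1 (-0.12). The erythroid covariate turned Kitl (-0.13), Pdgfra (0.048), and Prrx1 (0.44), and leaving out A3905 and A3906 turned Il7 (0.12) and Prrx1 (0.094). With T1D in KO, the erythroid covariate turned Pdgfra (0.070) and Prrx1 (0.046). Leaving out 1 mouse gave -0.10 to 0.034 for Angpt1, -0.12 to 0.14 for Il7, -0.066 to 0.028 for Pdgfra, -0.11 to 0.044 for Pdgfrb, and -0.12 to 0.022 for Foxc1.

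For the interaction, TPM turned Kitl (0.047, 0.052) and Angpt1 (0.024, 0.036), the A36 to A39 series Angpt1 (0.072), the erythroid covariate Kitl (0.0100) and Prrx1 (-0.40), and leaving out both mice Il7 (-0.097) and Prrx1 (-0.17). For KO Control against WT Control, the A36 to A39 series turned Kitl (0.0063), and the A17 term (0.011) and erythroid covariate (0.15) turned Prrx1. Leaving out 1 mouse gave -0.12 to 0.0044 for Kitl, -0.14 to 0.10 for Foxc1, and -0.13 to 0.090 for Prrx1. For KO T1D against WT T1D, the erythroid covariate turned Angpt1 (-0.074), Pdgfra (-0.0015), and Prrx1 (-0.25), TPM turned Pdgfrb (0.079, 0.085), and leaving out both mice turned Angpt1 (-0.13), Ebf3 (-0.0068), and Prrx1 (-0.19). Leaving out 1 mouse gave -0.058 to 0.11 for Angpt1.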

Other observations

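Leading markers of the other cell types in WT T1D against WT Control, by edgeR log2 fold change ± SE, were Phex at -0.99 ± 0.32 (adjusted p = 0.0796) and Col1a1 at -0.91 ± 0.49 (adjusted p = 0.282) for osteoblasts and osteocytes. For erythroid cells, the hemoglobin genes Hbb-bs and Hba-a1 rose by 0.89 ± 0.20 (adjusted p = 0.0367) and 0.69 ± 0.19 (adjusted p = 0.0499, edgeR). The cartilage genes Col9a1 and Acan were at -2.91 ± 1.08 (adjusted p = 0.118) and -1.66 ± 0.55 (adjusted p = 0.0872, edgeR).

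Mmp8 and S100a9 of neutrophils were at 0.52 ± 0.21 (adjusted p = 0.151) and 0.32 ± 0.18 (adjusted p = 0.299), and Vpreb1 and Igll1 of early B cells at -0.64 ± 0.60 (adjusted p = 0.555) and -0.26 ± 0.64 (adjusted p = 0.850, edgeR). Gp9 and Gp1ba of megakaryocytes were at 0.33 ± 0.16 (adjusted p = 0.211) and 0.10 ± 0.32 (adjusted p = 0.887), and Kdr and Cdh5 of endothelium at -0.24 ± 0.15 (adjusted p = 0.345) and -0.22 ± 0.11 (adjusted p = 0.244, edgeR). The muscle genes Ckm and Myh1 were at 0.26 ± 0.73 (adjusted p = 0.871) and -0.26 ± 0.72 (adjusted p = 0.874, edgeR).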
